A study of Mus musculus with 5 samples.

Results

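The genes examined were the MHC class II genes and their regulators: H2-Aa, H2-Ab1 and H2-Eb1, which encode chains of the classical peptide-presenting molecules; Cd74, the invariant chain; H2-DMa and H2-DMb1, which encode the peptide-loading molecule DM; H2-Oa and H2-Ob, which encode its partner DO; and Ciita, the class II transactivator. They were chosen by name, and all 9 were found among the 52550 genes of the count table by their gene identifiers. Gene expression had been measured by QuantSeq 3′ RNA sequencing in KL cells (Lin-cKIT+Sca-1-), sorted bone marrow cells that hold the committed myeloid progenitors. The comparison was between 3 BcorΔE9-10 libraries (males, scl-Cre-ERT +; Bcorfl/y) and 2 BcorWT libraries (males, scl-Cre-ERT +; Bcorwt/y), as a measure of antigen-presenting potential within the sorted gate.

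Both groups carried the Cre transgene, whose activity is directed to hematopoietic stem cells by the scl enhancer, and both received tamoxifen at 1 mg per day for 5 days at 3 to 6 months of age. Cells were taken 20 weeks later. In BcorΔE9-10, exons 9 and 10 are removed, which leaves a truncated Bcor without the part that binds the PRC1 complex. The labels do not say whether a library came from a single mouse, so p-values measure only the spread between these libraries, which may be technical.

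MHC class II molecules carry peptides from the endosome to the cell surface, where CD4 T cells read them. The alpha and beta chains assemble with the invariant chain, cathepsins trim that chain to a short peptide, and DM exchanges this peptide for antigen while DO restrains DM. Class II genes are switched on together by Ciita, which binds no DNA itself and is held at the promoter by RFX, CREB and NF-Y bound to the X and Y boxes. Dendritic cells, B cells and macrophages are the main cells that present antigen in this way, and many myeloid progenitors carry little class II protein.

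Of the class II members, 7 lie in 1 stretch of chromosome 17, at these positions of build mm10: H2-Oa at 34092340 to 34095234, H2-DMa at 34135182 to 34139101, H2-DMb1 at 34153072 to 34160230, H2-Ob at 34238903 to 34245907, H2-Ab1 at 34263209 to 34269418 and H2-Eb1 at 34305877 to 34316199 on the plus strand, and H2-Aa at 34282744 to 34287827 on the minus strand. Ciita is on chromosome 16 (10488178 to 10527564, plus strand), and Cd74 on another. H2-Oa, H2-Eb1 and Ciita each overlap a gene on the opposite strand (BC051537, Gm20513 and Dexi), and Cd74 holds the microRNA gene Mir5107 on its own strand. Whether strand was used in counting is not given in the sources used here, so reads of these overlapping genes cannot be told apart. Of the 30-base words in the last 300 bases of the transcripts, H2-DMb1 shared 1.85% with H2-DMb2 and Ciita 4.06% with other genes, and the other 7 members shared none.

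The proximal promoters are shown because class II genes are known to share motifs there. Promoters of 300 bases (250 before and 50 after the start) from RefSeq on build GRCm38.p6 were matched by symbol to 6 members, of which 5 are shown; the start lay within the gene as counted for 4 of them and 10 bases before it for H2-Eb1, while those of H2-DMa lay far outside. The capitals mark a Y box (ATTGG) and, upstream of it, an X-like box (AGNNAC followed 3 bases on by TG). Each sequence reads 5′ to 3′ on the strand of the gene.
H2-Aa, chr17:34287857-34287916, minus strand: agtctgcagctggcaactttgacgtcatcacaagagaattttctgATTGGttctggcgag
H2-Eb1, chr17:34305763-34305822, plus strand: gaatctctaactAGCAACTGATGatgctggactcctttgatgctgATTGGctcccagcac
H2-DMb1, chr17:34153085-34153144, plus strand: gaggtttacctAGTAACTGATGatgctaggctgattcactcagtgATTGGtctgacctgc
H2-Oa, chr17:34092291-34092350, plus strand: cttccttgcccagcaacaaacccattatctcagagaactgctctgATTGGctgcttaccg
H2-Ob, chr17:34238803-34238862, plus strand: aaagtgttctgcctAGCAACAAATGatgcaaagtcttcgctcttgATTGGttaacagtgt

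A Y box stood 38 to 56 bases before the start in all 5 of these promoters. Over both strands, ATTGG was found in 37.4% of 32851 RefSeq promoters of the same length and the X-like box in 14.8%. H2-Eb1, H2-DMb1 and H2-Ob held the X-like box 22, 23 and 20 bases upstream of the Y box. The pair at a spacing of 10 to 40 bases was present in this orientation in 0.207% of all promoters, and in either orientation in 0.377%. H2-Aa and H2-Oa did not hold these letters at that spacing. A match describes the sequence only, since binding was not measured.

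None of the 8 members that could be tested was called as different between BcorΔE9-10 and BcorWT. Reads at transcript ends are given as CPM (counts per 1000000 counts, scaled by TMM factors), and a gene was called when its limma p-value, adjusted by Benjamini-Hochberg over all genes tested, was under 0.05. Of 11766 genes tested, 10.1% were called, 6.02% as higher and 4.09% as lower in BcorΔE9-10. Members had adjusted p-values of 0.472 to 0.871 and none had an unadjusted p-value under 0.05; edgeR and DESeq2 also called 0 of them, with 0 unadjusted p-values under 0.05. The ranges of the groups overlapped for all 8, while 42.8% of all genes tested had groups that did not overlap. The median log2 fold change of the 8 members was 0.13 (6 positive, 2 negative), beside 0.0043 over all genes tested. In these bulk samples, fewer cells of a type and less RNA per cell cannot be told apart.

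**Figure D1:**
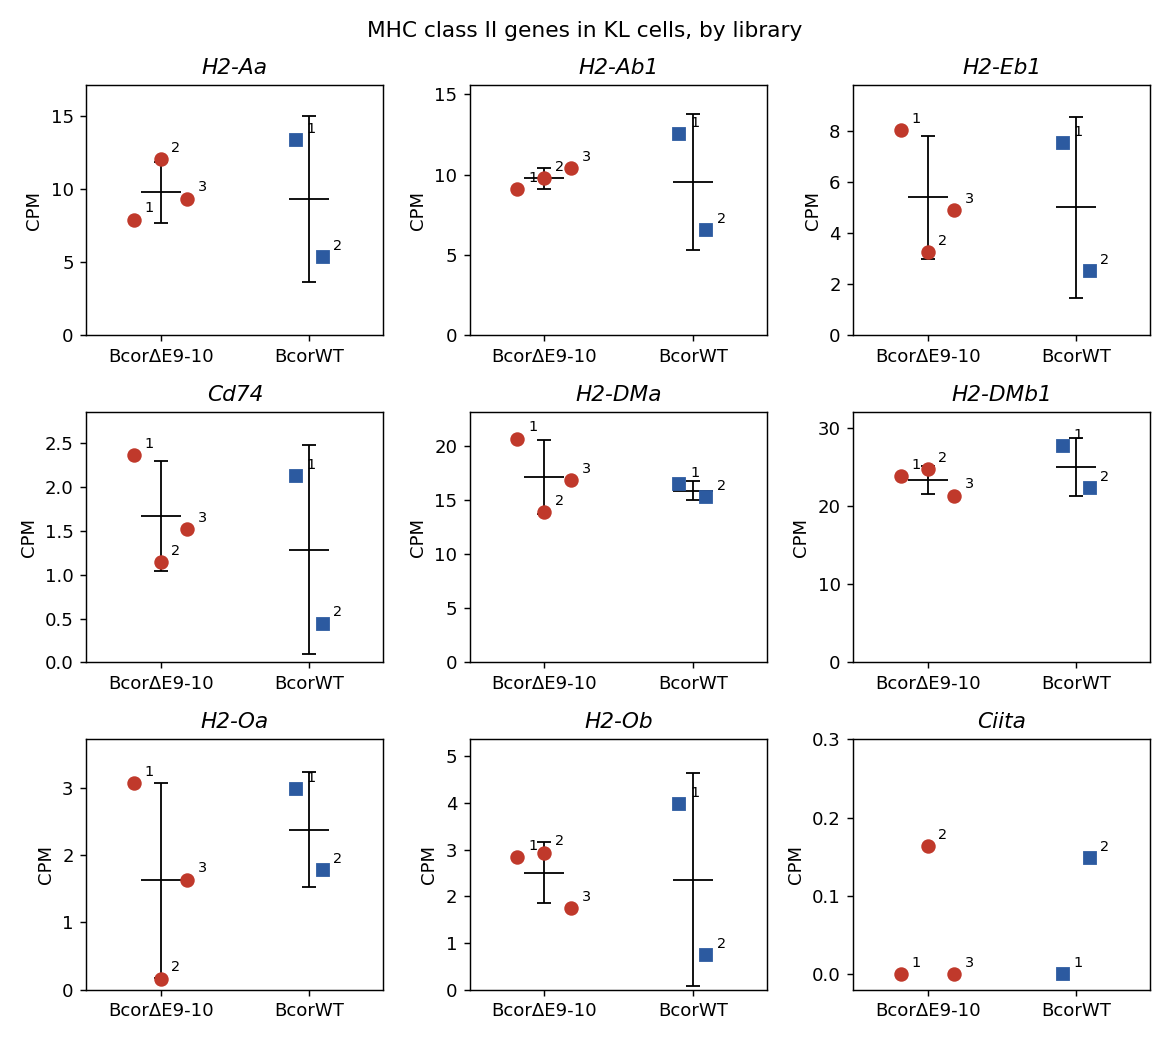
Level of each MHC class II gene in CPM (vertical axis, from 0, with a different scale per gene) in the 3 BcorΔE9-10 libraries (red circles) and 2 BcorWT libraries (blue squares), numbered by replicate; black lines are group means ± SD, left out for Ciita. In H2-Aa, H2-Ab1 and H2-Ob the BcorWT libraries lie above and below all 3 BcorΔE9-10 libraries.

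The classical chains came first. H2-Aa, the alpha chain of the I-A molecule, had 67, 74 and 80 counts in BcorΔE9-10 and 94 and 36 in BcorWT. It averaged 9.78 ± 2.11 CPM in BcorΔE9-10 (SD, n = 3) and 9.34 ± 5.67 CPM in BcorWT (SD, n = 2), and the log2 fold change was 0.15 (SE 0.339, 95% interval -0.57 to 0.86, limma adjusted p = 0.833). The BcorWT libraries bracketed all 3 BcorΔE9-10 libraries in CPM.

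H2-Ab1, the beta chain that pairs with H2-Aa, had 77, 60 and 89 counts in BcorΔE9-10 and 88 and 44 in BcorWT. The BcorΔE9-10 libraries sat close together at 9.76 ± 0.651 CPM (SD, n = 3), and BcorWT was at 9.51 ± 4.23 CPM (SD, n = 2). The log2 fold change was 0.10 (SE 0.290, 95% interval -0.51 to 0.71, limma adjusted p = 0.871), the value nearest to 0 among the members.

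H2-Eb1, the beta chain of the I-E molecule, had 68, 20 and 42 counts in BcorΔE9-10 and 53 and 17 in BcorWT. BcorΔE9-10 library 1 was highest and BcorWT library 2 lowest, so that both groups spread widely, at 5.40 ± 2.43 CPM (SD, n = 3) and 5.02 ± 3.54 CPM (SD, n = 2). The log2 fold change was 0.25 (SE 0.467, 95% interval -0.74 to 1.24, limma adjusted p = 0.785). Other class II chain genes were also looked up: H2-Eb2 and H2-Ea-ps had a count of 0 in all 5 libraries, which allows a level of up to 0.351 to 0.490 CPM, depending on the library (3 counts in each; counting error only).

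Cd74, the invariant chain that occupies the groove until the molecule reaches the endosome (chromosome 18, 60803848 to 60812646, plus strand), was sparse. It had 20, 7 and 13 counts in BcorΔE9-10 and 15 and 3 in BcorWT, or 1.68 ± 0.626 CPM (SD, n = 3) against 1.29 ± 1.19 CPM (SD, n = 2). The log2 fold change of 0.67 had a 95% interval of -0.90 to 2.24 (limma adjusted p = 0.613). QuantSeq counts 1 end per transcript and needs no scaling by length, so levels can be set side by side on the CPM scale, with the limit that reads past the end of a gene as counted are not in its value. In GENCODE M21 the genes run on to 34254414 for H2-Ob, 34316674 for H2-Eb1 and 10528418 for Ciita, beyond the ends counted, so the levels of these 3 may be too low. The ratio of Cd74 to H2-Aa was 0.299, 0.0946 and 0.163 in BcorΔE9-10 and 0.160 and 0.0833 in BcorWT, so that Cd74 was the lower in every library.

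H2-DMb1 and H2-DMa had the highest mean levels of the class II genes in these cells, as counted. H2-DMb1, the beta chain, had 202, 152 and 183 counts in BcorΔE9-10 and 195 and 151 in BcorWT, with 23.4 ± 1.77 CPM (SD, n = 3) against 25.0 ± 3.76 CPM (SD, n = 2). Its log2 fold change was -0.10 (SE 0.182, 95% interval -0.49 to 0.28, limma adjusted p = 0.767). H2-DMa, the alpha chain, had 175, 85 and 144 counts in BcorΔE9-10 and 116 and 103 in BcorWT. The BcorWT libraries were alike, at 15.9 ± 0.856 CPM (SD, n = 2), and lay within the BcorΔE9-10 range (17.1 ± 3.42 CPM, SD, n = 3). The log2 fold change was 0.11 (SE 0.220, 95% interval -0.35 to 0.58, limma adjusted p = 0.797). H2-DMb2, a second DM beta chain gene that was no member, had 56, 25 and 38 counts against 44 and 41, with a log2 difference of -0.29 (limma adjusted p = 0.621).

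The DO genes were low and uneven. H2-Oa, the alpha chain, had 26, 1 and 14 counts in BcorΔE9-10 and 21 and 12 in BcorWT. BcorΔE9-10 library 2, with 1 count, set most of the spread. The log2 fold change was -0.94 with a 95% interval of -2.56 to 0.68 (limma adjusted p = 0.472), and it was -0.055 without that library. H2-Ob, the beta chain, had 24, 18 and 15 counts in BcorΔE9-10 and 28 and 5 in BcorWT. The BcorWT libraries bracketed the others, and the log2 fold change was 0.42 with a 95% interval of -0.94 to 1.77 (limma adjusted p = 0.733).

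Ciita, whose level sets that of the other class II genes in antigen-presenting cells, was at the edge of detection. It had 1 count in BcorΔE9-10 library 2, 1 in BcorWT library 2 and 0 in the other libraries, and it did not pass the filter on low counts. The gene as counted also ends before the annotated end, as given above. No fold change is given, and a difference was not detectable at this depth.

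The 95% intervals show what these libraries could have seen. For H2-Aa, H2-Ab1, H2-DMa and H2-DMb1 the interval stayed within 1 log2 unit of 0 in both directions. For the other 4 tested members, all with lower mean levels, it reached past 1 log2 unit on at least one side.

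The tested members were ranked by level, with H2-DMb1 and H2-DMa highest and Cd74 lowest. The values of H2-Eb1 and H2-Ob may be too low, as given above. Over the 5 libraries, mean levels were 24.0 ± 2.44 CPM for H2-DMb1, 16.6 ± 2.55 for H2-DMa, 9.66 ± 2.17 for H2-Ab1, 9.61 ± 3.21 for H2-Aa, 5.25 ± 2.47 for H2-Eb1, 2.45 ± 1.24 for H2-Ob, 1.93 ± 1.19 for H2-Oa and 1.52 ± 0.772 for Cd74 (CPM, SD, n = 5). H2-DMb1 was above H2-DMa, and H2-DMa above H2-Ab1, in all 5 libraries. H2-Aa was above H2-Eb1 in 4 of 5 and H2-Eb1 above H2-Ob in 5 of 5. H2-Ab1 was above H2-Aa in 3 of 5 libraries and H2-Ob above H2-Oa in 3 of 5, so neither pair was separated beyond its spread. H2-Oa was above Cd74 in 4 of 5 libraries, with overlapping ranges.

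Summed by role, the genotypes were again not separated. Together the 9 genes gave 659, 418 and 580 counts in BcorΔE9-10 and 610 and 372 in BcorWT, or 77.9, 68.2 and 67.8 CPM against 86.6 and 55.1 CPM. The means were 71.3 ± 5.72 CPM (SD, n = 3) and 70.9 ± 22.3 CPM (SD, n = 2), with BcorWT both highest and lowest. The classical chains with Cd74 summed to 27.4, 26.3 and 26.2 CPM in BcorΔE9-10 and to 35.5 and 14.8 CPM in BcorWT. The DM genes summed to 44.6, 38.7 and 38.2 CPM against 44.2 and 37.6 CPM, and the DO genes to 5.91, 3.10 and 3.39 CPM against 6.96 and 2.52 CPM.

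As counted, DM exceeded the classical chains with Cd74 in every library. H2-Eb1 and H2-Ob may be counted too low, as given above, so the ratios of this paragraph carry that limit. The ratio of DM to the classical chains with Cd74 was 1.63, 1.47 and 1.46 in BcorΔE9-10 and 1.24 and 2.54 in BcorWT. The BcorWT values again lay on both sides of BcorΔE9-10. The ratio of DO to DM was 0.133, 0.0802 and 0.0887 in BcorΔE9-10 and 0.158 and 0.0669 in BcorWT, with the same bracketing.

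The spread of the classical chains was thus larger within BcorWT than between the genotypes. The classical chains with Cd74 took 33.0 of every 1000000 counts (95% Wilson interval 29.1 to 37.3) in BcorWT library 1 and 14.1 (11.6 to 17.1) in BcorWT library 2, intervals that do not meet. The DM genes took 41.0 (36.7 to 45.9) and 35.8 (31.7 to 40.5). On the log2(CPM + 0.5) scale, BcorWT library 2 minus library 1 was -1.48 for Cd74, -1.25 for H2-Aa, -0.89 for H2-Ab1, -1.41 for H2-Eb1 and -1.85 for H2-Ob, but -0.11 for H2-DMa, -0.30 for H2-DMb1 and -0.61 for H2-Oa. A fall of more than 1 was seen in 4 of 8 members, in 3.75% of all genes tested, and in 4.95% of the 7738 genes with a mean log2(CPM + 0.5) of 0.5 to 5.

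**Figure D2:**
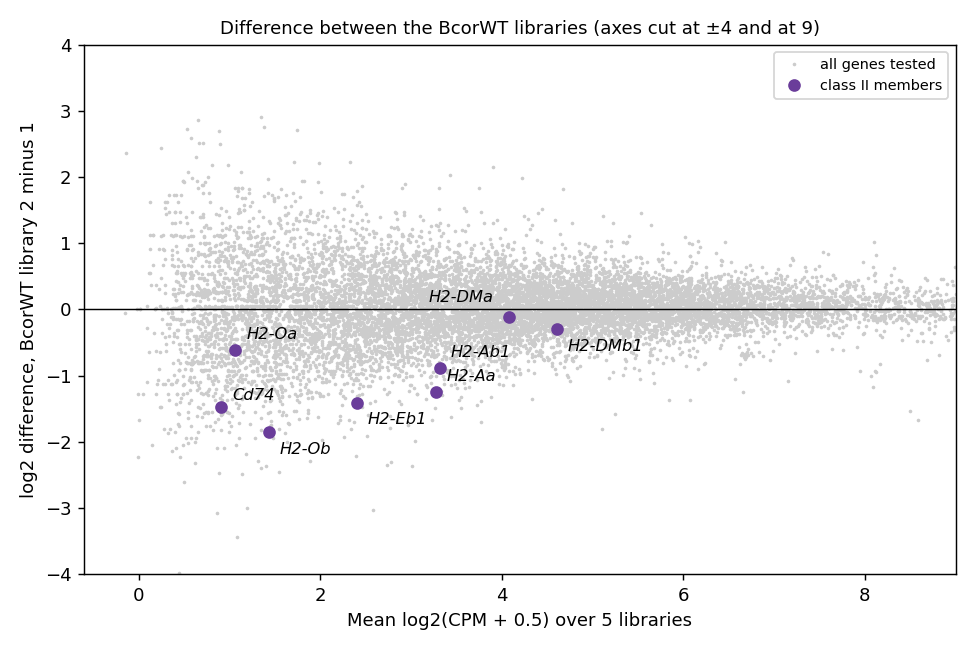
Difference between BcorWT library 2 and library 1 in log2(CPM + 0.5) (vertical axis) against the mean over 5 libraries on the same scale (horizontal axis) for all genes tested (grey) and the 8 tested MHC class II genes (purple). All 8 lie below 0, from -0.11 for H2-DMa to -1.85 for H2-Ob.

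The direction of 5 members rested on BcorWT library 2. Without it, the log2 fold changes were -0.34 for Cd74, -0.49 for H2-Aa, -0.35 for H2-Ab1, -0.50 for H2-Eb1 and -0.72 for H2-Ob, each of the opposite sign to the fit with all libraries. No member was called with or without this library.

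Genes whose level followed the summed class II level were looked for next. Among 845 genes that averaged at least 3 in log2(CPM + 0.5) with a range of at least 1, those with the highest Pearson correlation over the 5 libraries were Icosl (0.989), Trib1 (0.971), Kif13b (0.950), Timp2 (0.944) and Sec16a (0.943), and 10 genes were above 0.9. Icosl, which encodes the ligand of the T cell costimulator ICOS, was at 9.81, 7.83 and 6.66 CPM in BcorΔE9-10 and at 12.2 and 4.74 CPM in BcorWT. All 5 genes were highest in BcorWT library 1 and lowest in BcorWT library 2. These correlations are a description over 5 libraries, chosen from many genes.

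None of the factors that hold Ciita at class II promoters passed the test. Rfx5, Rfxap and Rfxank (RFX), Nfya, Nfyb and Nfyc (NF-Y) and Creb1 were all tested, and 0 of 7 were called, with a median log2 fold change of 0.05. The largest values were 0.69 for Rfxap (limma adjusted p = 0.200), 0.62 for Nfya (0.142), -0.37 for Nfyc (0.222) and -0.33 for Rfxank (0.606). The groups did not overlap for Rfxap, Nfya and Nfyc, 3 of the 7, beside 42.8% of all genes tested. The 95% interval of Nfya, 0.07 to 1.17, lay above 0. In level, Creb1 was at 49.0 ± 4.19 CPM (SD, n = 3) and 47.4 ± 2.27 CPM (SD, n = 2), where the counted part of Ciita was near 0.

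Of regulators upstream of class II, 9 of 14 in the table were tested, with 1 higher and 1 lower and a median log2 fold change of -0.04. Over all genes tested, 6.02% were called higher and 4.09% lower. Spi1, which encodes the myeloid factor PU.1, was lower in BcorΔE9-10, at 156.8 ± 10.97 CPM (SD, n = 3) beside 218 ± 16.8 CPM in BcorWT (SD, n = 2), with a log2 difference of -0.47 (SE 0.114, limma adjusted p = 0.0154). March8, a membrane ubiquitin ligase that can remove class II from the surface, was higher in BcorΔE9-10, at 18.0 ± 2.73 CPM (SD, n = 3) beside 9.91 ± 2.96 CPM in BcorWT (SD, n = 2), with a log2 difference of 0.86 (SE 0.258, limma adjusted p = 0.0431). Both kept their sign under every alternative, but the calls did not hold throughout. Spi1 lost its call after correction for GC content (-0.37, adjusted p = 0.0546), with total counts as the only scaling (-0.33), without BcorWT library 1 (-0.40, 0.109) and without BcorΔE9-10 library 1 (-0.47). March8 lost its call after correction for GC content (0.65, adjusted p = 0.128; 0.63 with the replicate block), with sample quality weights (0.84), without BcorWT library 1 (0.55, 0.345) and without BcorΔE9-10 library 2 (0.78) or 3 (0.81). March1, the related ligase of dendritic cells and B cells, was at -0.06 (limma adjusted p = 0.933). Irf8, a dendritic and monocytic lineage factor, had 611, 531 and 615 counts against 585 and 497, with a log2 difference of -0.04 (limma adjusted p = 0.896). Nlrc5, the class I counterpart of Ciita, had 8, 4 and 9 counts against 17 and 18, groups that did not overlap, and a log2 difference of -1.45 (limma adjusted p = 0.130).

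Of the genes that process antigen for class II loading, 9 of 10 were tested and 1 was called, beside 10.1% of all genes tested. Ctsd, the lysosomal protease cathepsin D, was lower in BcorΔE9-10, at 200 ± 17.2 CPM (SD, n = 3) beside 313.8 ± 14.97 CPM in BcorWT (SD, n = 2), with a log2 difference of -0.65 (SE 0.110, limma adjusted p = 0.00144). Ctss, the cathepsin that trims the invariant chain in dendritic cells and B cells, had 88, 103 and 111 counts against 98 and 97 and did not pass the test (-0.14, limma adjusted p = 0.769). Ifi30, a lysosomal thiol reductase, was at -0.38 (limma adjusted p = 0.426) and Lamp1, a lysosomal membrane protein, at -0.28 (0.0961). The median over the list was -0.20.

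**Figure D3:**
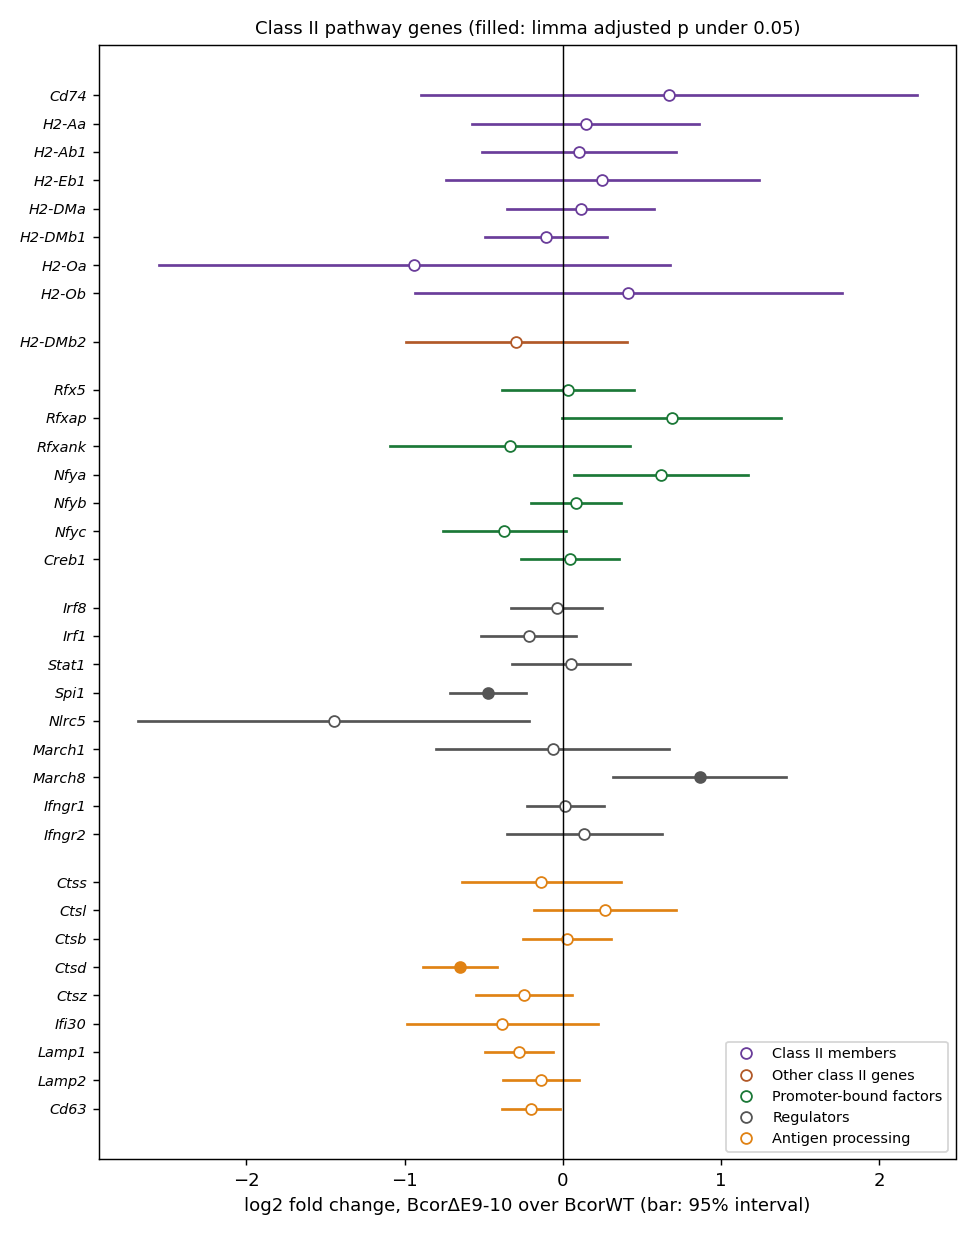
Log2 fold changes, BcorΔE9-10 over BcorWT (horizontal axis), with limma 95% intervals (bars) for the tested MHC class II genes and 4 lists of the same pathway; filled points had an adjusted p under 0.05. The filled points are Spi1 and Ctsd to the left of 0 and March8 to the right.

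Genes between and beside the class II members on chromosome 17 were read in the same fit. The window from 100 kb before H2-Oa to 100 kb after H2-Eb1 (chromosome 17, 33992340 to 34416199) holds 23 protein-coding genes, of which 17 were tested, 7 of them members. Of the 10 that were not members, 3 were higher in BcorΔE9-10, or 30%, and 0 were lower. Over all genes tested, these shares were 6.02% and 4.09%. Tap2, a chain of the peptide transporter of class I presentation, had 916, 763 and 981 counts against 40 and 80, or a log2 difference of 3.81 (SE 0.266, limma adjusted p = 1.29e-06). Psmb9, a subunit of the immunoproteasome, had 630, 599 and 689 counts against 261 and 377 (0.87, limma adjusted p = 0.00466). Brd2, a chromatin reader after H2-Oa on the chromosome, had 3836, 3483 and 3762 counts against 1846 and 2473 (0.64, limma adjusted p = 0.00830).

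Class II genes next to these did not pass the test. H2-Ob, the next tested gene after Tap2, was at 0.42 (95% interval -0.94 to 1.77), H2-DMb1, the next before Psmb9, at -0.10 (-0.49 to 0.28) and H2-Oa and H2-DMa, on either side of Brd2, at -0.94 (-2.56 to 0.68) and 0.11 (-0.35 to 0.58). Differences between neighbours were not tested. Tap1, which pairs with Tap2 and overlaps Psmb9 at its start on the opposite strand, was at -0.11 (limma adjusted p = 0.740), and Psmb8 at 0.13 (0.561). Tap2 overlaps Gm20496 and Gm15821 on the opposite strand, and Brd2 overlaps CR974462.3 and a longer annotated form of H2-DMa there (from 34119541 in GENCODE), so that reads of these genes may be among their counts. Without BcorWT library 1, Tap2 kept its call at 3.27, while Psmb9 (0.57, limma adjusted p = 0.0785) and Brd2 (0.39, limma adjusted p = 0.124) lost theirs.

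**Figure D4:**
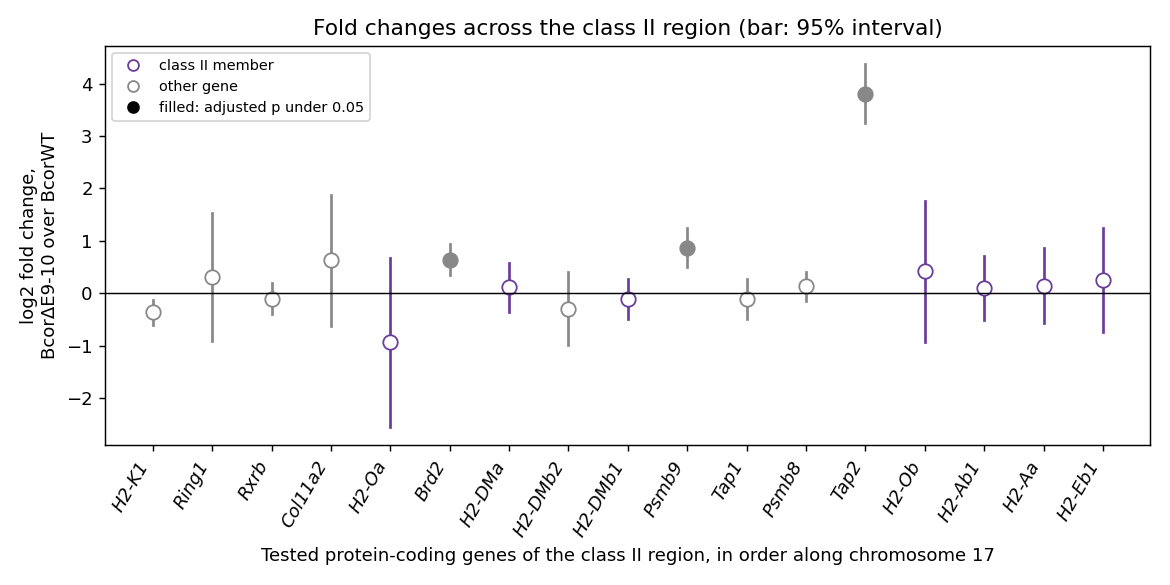
Log2 fold changes, BcorΔE9-10 over BcorWT (vertical axis), with limma 95% intervals for the 17 tested protein-coding genes of the class II region in their order along chromosome 17 (horizontal axis, not to distance); purple marks class II members, grey the other genes, and filled points an adjusted p under 0.05. Tap2 at 3.81, Psmb9 at 0.87 and Brd2 at 0.64 are the filled points, and the intervals of all 7 members cross 0.

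Class I presentation genes, several of which share the region, gave 3 calls among 10 tested, beside 10.1% of all genes tested. Besides Tap2 and Psmb9, H2-D1, a class I heavy chain, was lower (-0.38, SE 0.0962, limma adjusted p = 0.0184), a call lost with total counts as the only scaling (-0.24, adjusted p = 0.121), without BcorWT library 1 (0.0645) or 2 (0.0527) and without BcorΔE9-10 library 3 (0.0595). The median of the list was -0.01.

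Markers of the cells that usually carry class II were read beside these values. For the counts of calls below, the share called over all genes tested was 10.1%. Mpo, a gene of myeloid progenitors, was at 4937 ± 622 CPM (SD, n = 3) and 5238 ± 78.2 CPM (SD, n = 2), while Kit, the receptor used for sorting, was higher in BcorΔE9-10 (51.0 ± 2.14 against 18.9 ± 0.977 CPM). Of 12 conventional dendritic cell markers, 6 were tested and 1 was called, Cst3 (0.35, limma adjusted p = 0.0489), and the median log2 fold change was -0.48. Itgax (-1.02, limma adjusted p = 0.224), Clec10a (-1.05, 0.121) and Fcer1a (-1.32, 0.0834) had negative values, and Flt3 a positive one (1.55, 0.219). Of the 6 tested, 3 values were positive and 3 negative. The groups did not overlap for Clec10a, Fcer1a, Flt3 and Cst3, beside 42.8% of all genes tested. The count of calls in this list ranged from 0 to 3 over the alternatives. It was 0 by edgeR, with DESeq2 size factors, with sample quality weights and without any 1 of the BcorΔE9-10 libraries. It was 2 with at least 10 counts in every library and 3 with a replicate block, and it also moved without either BcorWT library. Xcr1 and Clec9a had 0 to 4 counts per library, Batf3 0 to 6 and Zbtb46 2 to 8. The list summed to 350 to 391 CPM in BcorΔE9-10 and 288 to 319 CPM in BcorWT, most of it Cst3, which is not restricted to dendritic cells.

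Of 10 plasmacytoid dendritic cell markers, 5 were tested and 1 was called, Runx2 (1.04, limma adjusted p = 0.0202), but 0 after GC correction (0.79, adjusted p = 0.0788), without BcorWT library 1 (1.104, 0.0911) or without library 2 (0.98, 0.0805), and the list summed to 39.8 to 44.2 CPM against 31.3 and 36.1 CPM. The median log2 fold change of the tested genes was 0.25, with 3 positive and 2 negative values. Bst2 (-0.71, limma adjusted p = 0.199) and Cox6a2 (-0.82, 0.505) had the negative ones, and Tcf4 was at 0.25 (0.495). Siglech, a defining marker, had 6, 0 and 13 counts against 2 and 0. Of 14 B cell markers, 7 were tested and 0 were called, with a median log2 fold change of 1.15 and 6 of 7 values positive. Pax5, the B lineage factor, had 15, 11 and 15 counts against 4 and 1, groups that did not overlap (2.27, 95% interval 0.33 to 4.21, limma adjusted p = 0.130), and Vpreb3 (1.75), Ebf1 (1.74) and Igll1 (1.15) had positive values with overlapping groups. Ms4a1 was at 0 counts in all libraries, while Ighm was level at 40.8 ± 5.94 CPM (SD, n = 3) and 40.7 ± 10.5 CPM (SD, n = 2). The list summed to 46.7, 64.1 and 70.9 CPM in BcorΔE9-10 and to 63.3 and 41.6 CPM in BcorWT. The order of the BcorWT libraries was that of the classical chains.

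Of 14 monocyte and macrophage markers, 9 were tested, with Ly6c2 (-0.36, limma adjusted p = 0.0148) and Lyz2 (-0.61, limma adjusted p = 0.000389) lower, and the list summed to 5543 to 6488 CPM against 8500 and 8748 CPM. The call of Ly6c2 was lost with total counts as the only scaling (-0.22, limma adjusted p = 0.0964), with the replicate block and GC correction, without either BcorWT library (0.0544 and 0.0523) and without BcorΔE9-10 library 1 or 3 (0.0634 and 0.0603). C1qa and C1qb, of tissue macrophages, had 21 and 12 counts in BcorWT library 2 and at most 1 in any other library; this library had the lowest class II level. Of 10 genes of maturing granulocytes, 5 were called lower in BcorΔE9-10, among them S100a8 (-0.61, limma adjusted p = 7.95e-05), and 0 higher. Over all genes tested, 4.09% were called lower. The list had 8 negative and 2 positive log2 fold changes. The positive ones were those of Camp (0.25, limma adjusted p = 0.114), an abundant gene of the list, and Fcnb (0.04, 0.872). The list gave 8 calls in either direction with a replicate block, and the count also moved without BcorWT library 2. Ly6g, a granulocyte surface gene that the sort excludes, was also lower (-0.97, limma adjusted p = 0.00204), while Itgam, which encodes CD11b and is likewise excluded, was at 0.37 with groups that did not overlap (limma adjusted p = 0.0618).

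The order of the BcorWT libraries was then compared over the marker lists. BcorWT library 2 was lower than library 1 for 8 of 8 tested class II members and 7 of 7 B cell markers, for 4 of 5 plasmacytoid and 2 of 6 conventional dendritic cell markers, for 5 of 9 monocyte and macrophage markers and for 7 of 10 granulocyte genes. The median differences, library 2 minus 1 in log2(CPM + 0.5), were -1.07, -0.72, -0.12, 0.22, -0.16 and -0.14 in the same sequence. The median was 0.023 over all genes tested and 0.005 over those with a mean log2(CPM + 0.5) of 0.5 to 5. Counts of the tested B cell markers in these 2 libraries ran from 4 and 0 for Vpreb3 to 339 and 225 for Ighm. A fall of more than 1 was seen in 4 of the members, in 1 gene of each of these lists but the last (Vpreb3 with 4 and 0 counts, Ly6d with 47 and 9, Itgax with 48 and 17 and Adgre1 with 33 and 11) and in 2 granulocyte genes (Mmp8 with 5663 and 1867 and Retnlg with 5842 and 1753). The part of these cell types in the class II levels was not tested.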

How the data were processed

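KL cell libraries of 3 BcorΔE9-10 and 2 BcorWT samples were compared, grouped by their titles. Per the labels and the study's methods, the authors trimmed QuantSeq reads with cutadapt (1.7 in the submitters' processing notes, another version in the methods), aligned them to mm10 with HISAT2 and counted them per gene with featureCounts (Subread 1.5.0-p3). The deposited values are raw counts, not normalised. The options for strand and for reads with several alignments are not given in the sources used here. Total counts ranged from 5998924 to 8303999, and the spread within groups was larger than counting alone gives (chi-square of 5.69 to 10.8 per gene between libraries). Wilson intervals and limits for a count of 0 cover counting error only.

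Symbols were found for 52403 of 52550 identifiers. filterByExpr of edgeR (4.0.16; minimum count 10, minimum total 15) left 11766 genes. Genotype was tested with limma (3.58.1) on voom values with TMM factors, two-sided, in R 4.3.3, since the study's methods name limma; CPM are counts over the TMM-scaled total of the tested genes. The procedure was tested on simulated data. edgeR's quasi-likelihood test, DESeq2 (1.42.0), scaling, filters, sample quality weights, a GC correction (lowess, span 0.3, on the last 300 transcript bases), a block on replicate number and fits without each library were alternatives. Those for the region genes, the other genes named and the ratios of DM to classical chains and of DO to DM were added after seeing the data.

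The members and gene lists were chosen with earlier results of these data known. Named were all members, called genes of each list, up to 4 tested genes of largest change per pathway list and up to 3 of the most abundant per marker list, and 5 genes most like the summed level; defining markers with few counts, other marker genes with large fold changes and those with large differences between the BcorWT libraries were named after their values were seen.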

Additional observations from a re-analysis of the deposited data

How the results depend on the processing

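The count of called members was 0 under every alternative, with 5 members tested when 10 counts were required in every library and 9 with no filter, and their lowest adjusted p ranged from 0.265 to 0.780. Of 117 member fold changes recomputed, 106 kept their sign and 11 reversed, none past the threshold. With total counts as the only scaling, the median of all genes moved by 0.14, with 0.042 for H2-DMb1. It also gave 1210 genes higher and 197 lower, against 708 and 481, so the split of directions over all genes depends on the scaling. Leaving out each library gave log2 fold changes of -0.34 to 1.73 for Cd74, -0.49 to 0.81 for H2-Aa, -0.35 to 0.57 for H2-Ab1, -0.50 to 1.04 for H2-Eb1, -0.036 to 0.23 for H2-DMa, -0.25 to 0.046 for H2-DMb1, -1.71 to -0.055 for H2-Oa and -0.72 to 1.59 for H2-Ob. Of the reversals, 5 came without BcorWT library 2; H2-DMb1 reversed without BcorWT library 1, and H2-DMa and H2-Eb1 (-0.091) without BcorΔE9-10 library 1. Where 1 BcorWT library was left, it was assumed to vary like the other group. The log2 difference of the summed level ranged from -0.28 to 0.37, that of the DM to classical ratio from -0.74 to 0.29 and that of the DO to DM ratio from -0.68 to 0.55, each changing sign with the BcorWT library left out. Calls over all genes numbered 1189, and 558 without BcorWT library 1, 774 without BcorΔE9-10 library 2 and 723 without BcorΔE9-10 library 3. Calls in the region numbered 2 to 4 against 3, and those in the lists 13 to 24 against 17.

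Samples share only a replicate number: deviations of same-numbered samples correlated at 0.077 and 0.082 over the 2 pairs. With a replicate block, 0 members were called, 24 list genes and 4 region genes, and 1454 of all genes; H2-Ab1 reversed to -0.042, and H2-DMb1 to 0.026 with the block and GC correction. The causes of these reversals were not tested. With 1 to 28 counts per library, Cd74, H2-Oa and H2-Ob could show only large differences, and Ciita none.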
